A study of Mus musculus with 6 samples.

Results

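Cdkn1a and 9 genes linked to it through the tumour suppressor p53 were examined in heart ventricles of 6 male mice, each measured on its own Affymetrix array. The genes were listed by name, and a gene was read from the transcript cluster whose platform annotation gives its symbol alone. This found 7 of the 10 listed genes (Cdkn1a, Cdkn1b, Cdkn1c, Mdm2, Ccng1, Sesn1 and Sesn2), each with 1 cluster, among 30142 genes in all. No cluster of that kind was found for Trp53, Bax or Gdf15, which were not analysed here. The list was chosen by earlier results on these same arrays, above all the low Cdkn1a signal of the finerenone arrays, so the Cdkn1a difference is given as a description with no test.

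All 6 mice were "Het" animals on the C57BL/10 background, which lack dystrophin (mdx) and carry a single functional utrophin allele (utrn+/-), a mouse model of Duchenne muscular dystrophy. The finerenone group of 3 mice ate chow with 100 ppm of finerenone, a non-steroidal blocker of the mineralocorticoid receptor, from 4 weeks of age. The untreated group of 3 mice ate the same chow without the drug, and all mice were 20 weeks old at collection. Treatment was assigned at random, and the labels call the arrays of a group biological replicates. Both groups share the dystrophic genotype, so no healthy heart serves as a reference. Each value is the authors' log2 signal of an array, and a difference is the finerenone mean minus the untreated mean on that log2 scale, so 1 unit is a doubling.

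p53 is a transcription factor that cells stabilise under DNA damage and other stress. It switches on genes that halt the cell cycle, repair DNA or start apoptosis, and it is held low by Mdm2, which is itself a p53 target. Cdkn1a encodes p21, the inhibitor of cyclin-dependent kinases through which p53 stops division, but it also answers to signals that need no p53, among them glucocorticoids, growth inhibitors and the circadian clock. In the adult heart, most cardiomyocytes have left the cell cycle for good.

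Of the 10 genes, 9 had a promoter window in the RefSeq sequences (GRCm38.p6). The 250 bases before each annotated start were searched on both strands for the p53 decamer consensus, the 10-base unit that p53 binds in pairs. The upstream start of Cdkn1a is shown because it holds such a pair. Capitals mark matches to the decamer and to a pair of them, and the window is chr17:29090729-29090978 on the plus strand.
Cdkn1a: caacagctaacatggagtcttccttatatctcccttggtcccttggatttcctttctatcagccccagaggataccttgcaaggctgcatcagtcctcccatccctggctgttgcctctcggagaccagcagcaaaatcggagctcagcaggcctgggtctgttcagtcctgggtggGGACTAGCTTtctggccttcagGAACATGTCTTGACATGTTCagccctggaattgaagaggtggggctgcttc
The decamer was found in 6 of the 12 windows of these genes, against 7.13% of 32851 windows of all genes. Adjacent decamers with at most 1 mismatch were found at Cdkn1a and Ccng1, and in 0.0761% of all windows. The single or paired matches of the measured genes are shown with 10 bases on each side to let them be compared.
Cdkn1a pair (chr17:29090918-29090957, plus strand): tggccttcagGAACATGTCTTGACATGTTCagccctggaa
Ccng1 pair (chr11:40755452-40755491, minus strand): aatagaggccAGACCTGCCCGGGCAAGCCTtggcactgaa
Mdm2 (chr10:117710925-117710954, minus strand): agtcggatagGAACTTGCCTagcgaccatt
Sesn1 (chr10:41887256-41887285, plus strand): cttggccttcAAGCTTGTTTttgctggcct
Neither Cdkn1a window held the E-box CACGTG, which is bound by the clock activators and lies in 6.02% of all windows. The RORE consensus of the clock (0.332% of windows) and the palindromic core of the glucocorticoid response element (0.387%) were not in them either. The searches for paired decamers, the E-box and the RORE were chosen after the values below were seen, and a match or its lack in this window says nothing of binding.

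Cdkn1a had the lower signal in finerenone-treated hearts. The 3 treated arrays read 12.13, 10.24 and 10.27, and the 3 untreated arrays read 12.69, 12.42 and 12.51. Finerenone replicates 2 and 3 lay far below every other array, while replicate 1 lay 0.29 below the lowest untreated one, so the groups did not overlap. The means were 10.88 ± 1.08 and 12.54 ± 0.14 (SD, n = 3 each), a log2 difference of -1.66 ± 0.50 (SE), or 3.17-fold. By size this was place 7 among the 30142 genes.

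**Figure D1:**
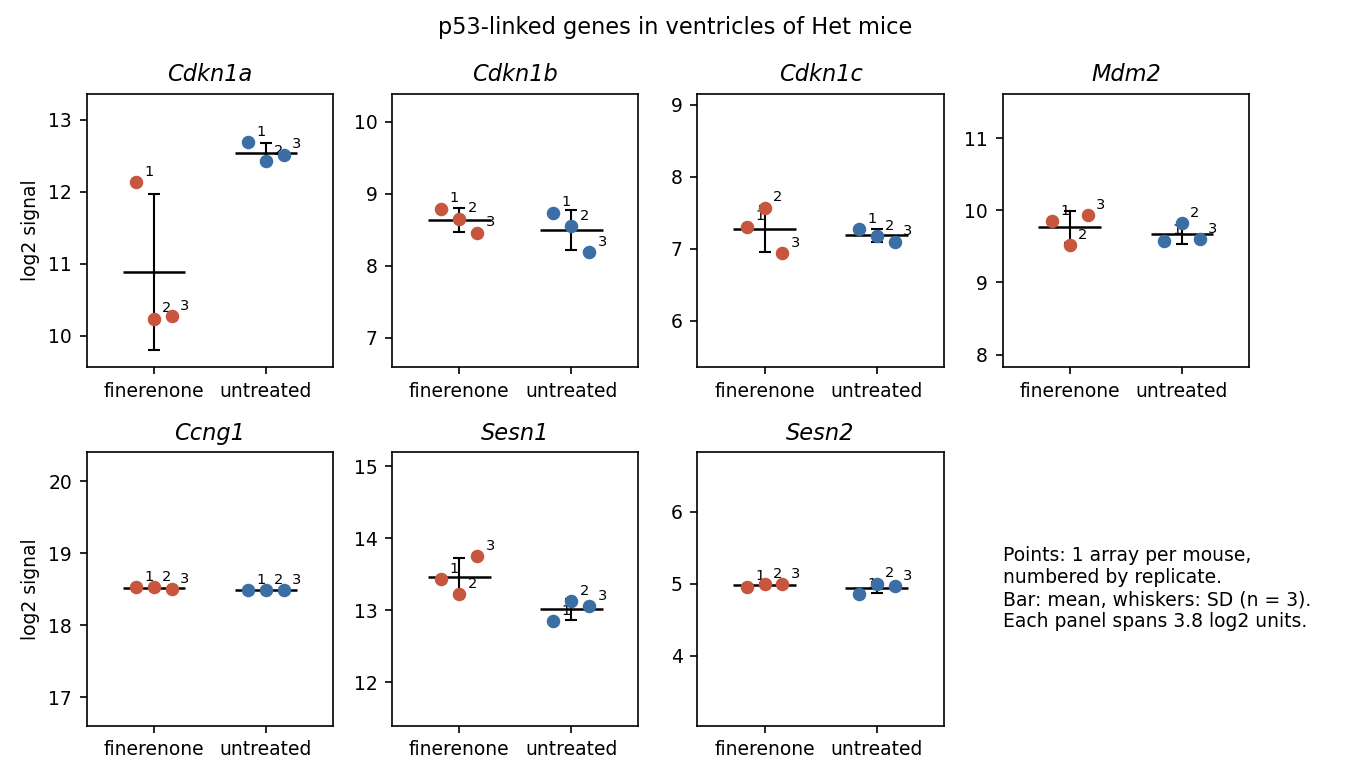
Log2 signal (y axis) of the 7 measured genes in each of the 6 arrays, numbered by replicate, with the group mean and SD. Cdkn1a is split within the finerenone group (12.13 against 10.24 and 10.27), and no other gene shows a split of that size between treated arrays.

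The treated arrays of Cdkn1a were spread far more widely than the untreated ones. Replicate 1 exceeded replicates 2 and 3 by 1.89 and 1.86, a gap of 3.71-fold and 3.63-fold between mice on the same diet. The 3 untreated arrays spanned 0.27. An SD among treated arrays as large as that of Cdkn1a was reached by 24 genes, itself included (0.0796% of all), where the median gene had 0.14, whereas its SD among untreated arrays was ordinary (0.14, with a median of 0.14). Without finerenone replicate 1 the difference was -2.29, and without replicate 2 or 3 it was -1.34 or -1.36.

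Neither of the other Cip/Kip inhibitors was low in both finerenone replicates 2 and 3. Cdkn1b, or p27, which holds cells out of the cycle, read 8.79, 8.65 and 8.46 in treated and 8.74, 8.55 and 8.19 in untreated arrays. The groups overlapped and the difference was 0.14 ± 0.16 (SE; 95% interval -0.25 to 0.53). Cdkn1c, or p57, an imprinted inhibitor of the same family, read 7.31, 7.57 and 6.94 against 7.28, 7.18 and 7.10. Its difference was 0.09 ± 0.16 (interval -0.31 to 0.49), again with overlapping groups. Neither difference had a stable sign, since Cdkn1b was at -0.0076 without untreated replicate 3 and Cdkn1c at -0.06 without finerenone replicate 2. Finerenone replicates 2 and 3, the low arrays for Cdkn1a, included the highest Cdkn1c value of all 6 arrays and the lowest.

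Mdm2, the ubiquitin ligase that marks p53 for degradation, read 9.85, 9.52 and 9.93 in treated and 9.58, 9.82 and 9.60 in untreated arrays. The groups overlapped, and the difference was 0.10 ± 0.14 (SE; interval -0.23 to 0.42). It was 0.22 without finerenone replicate 2 and 0.0145 without replicate 3. The arrays with low Cdkn1a thus held both the lowest and the highest Mdm2 signal.

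Among the further p53 targets of the list, Sesn1 differed most, and in the direction opposite to Cdkn1a. Sesn1 encodes sestrin 1, a stress protein that restrains mTORC1 and is also a target of FoxO factors. It read 13.43, 13.22 and 13.74 in treated against 12.84, 13.13 and 13.06 in untreated arrays, and the groups did not overlap. The difference was 0.45 ± 0.15 (SE; 1.37-fold), which did not pass in limma after adjustment over all genes (adjusted p = 0.607). With single arrays left out it ran from 0.31 to 0.58.

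Ccng1, or cyclin G1, which recruits a phosphatase to Mdm2, read 18.53, 18.53 and 18.51 in treated and 18.49 in each untreated array. The groups were apart by little (0.03 ± 0.07, SE), and the sign turned to -0.04 after cyclic loess normalization. It is a signal near the top of the deposited scale. Sesn2, or sestrin 2, which the integrated stress response also induces, read 4.964, 4.995 and 5.001 in treated against 4.8585, 5.006 and 4.971 in untreated arrays. These values lay beside the median of all genes in each array (4.91 to 4.98), and the difference was 0.04 ± 0.08 (SE), with overlapping groups and a value of -0.0020 without untreated replicate 1.

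Over all 30142 genes limma called 0.00% at an adjusted p below 0.05 (smallest adjusted p = 0.597), and 0 of the measured members. At an unadjusted p below 0.05 it found 2353 genes (7.81%), of which 1715 were higher (5.69% of all genes) and 638 lower (2.12%). The higher ones made up 72.9% of them, or 59.2% after quantile normalization. Leaving Cdkn1a aside, 1 of the other 6 members was among them, Sesn1 (unadjusted p = 0.0238 in limma). Sesn1 was not among them after quantile normalization (0.0902) or cyclic loess (0.0544), nor without finerenone replicate 3 (0.0575) or untreated replicate 1 (0.0742). Groups did not overlap for 12.4% of all genes (8.17% higher, 4.18% lower) and, aside from Cdkn1a, for 2 of these 6 members, Sesn1 and Ccng1, both higher. All 6 were higher in the mean of treated hearts, with a median of 0.09 against 0.03 over all genes, of which 58.2% were higher. Of the 6, 5 had a mean signal of at least 6, and of all genes that bright 60.8% were higher (median 0.05). For Cdkn1b, Cdkn1c, Ccng1 and Sesn2 the sign turned in 1 other setting or with 1 array left out.

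**Figure D2:**
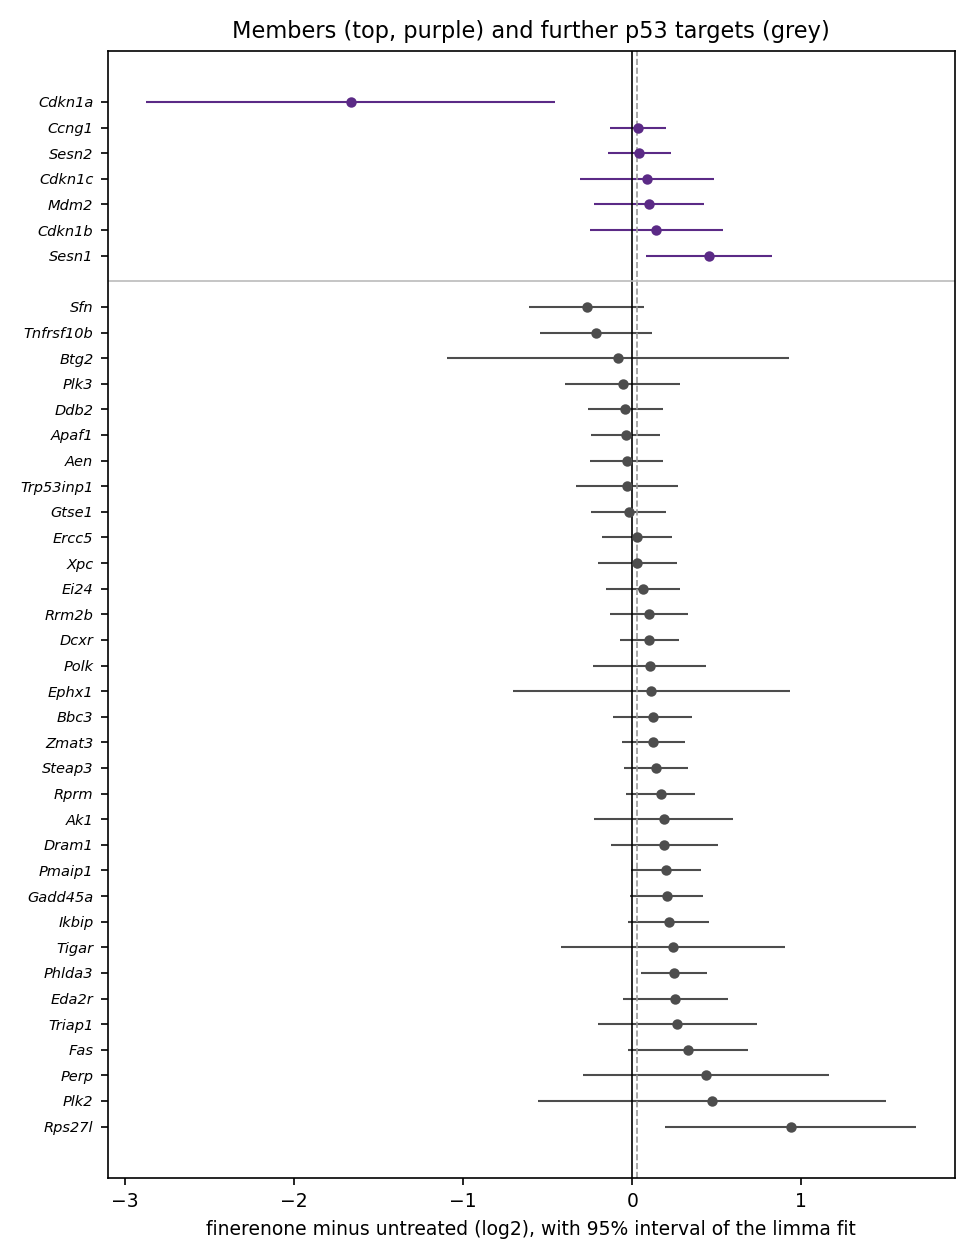
Finerenone minus untreated log2 difference (x axis) with its 95% interval in the limma fit, for the 7 measured members in purple and 33 further p53 targets in grey; the dashed line is the median of all genes (0.03). Cdkn1a at -1.66 stands alone on the left, and 24 of the 33 further targets lie to the right of 0. Cdkn1a was chosen for its low treated signal in these arrays, so its interval is drawn as a description and is no test.

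To ask whether Cdkn1a moved with p53 targets at large, 35 more of them were taken from general knowledge of the pathway, of which 33 were measured. In treated hearts 24 were higher and 9 lower (72.7% higher), with a median difference of 0.12 and single differences from -0.27 to 0.94. Of them 0 passed over all genes, and 2 (6.06%) had an unadjusted p below 0.05, close to the 7.81% of all genes. The groups did not overlap for 7, all higher (21.2%, against 8.17% of all genes). The targets were brighter than most genes, with 21 of the 33 at a mean signal of at least 6. Of all genes that bright, 60.8% were higher and 10.8% were higher with groups apart. In the same limma fit 12.2% of them had an unadjusted p below 0.05. Leaving out 1 array at a time moved the median between 0.09 and 0.15, and the other settings between 0.10 and 0.14.

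Rps27l, a ribosomal protein that p53 induces, differed most in this list, by 0.94 ± 0.31 (SE), with 11.50, 12.04 and 11.16 in treated against 10.25, 11.19 and 10.46 in untreated arrays. The groups just overlapped, and the gene is a close copy of Rps27, so its value is uncertain. Phlda3, which restrains Akt, read 6.31, 6.44 and 6.31 against 6.15, 6.03 and 6.14, a difference of 0.25 ± 0.08. Gadd45a, a protein of growth arrest after DNA damage, differed by 0.20 ± 0.09 and Pmaip1, the apoptosis inducer Noxa, by 0.20 ± 0.09, both with groups apart but Pmaip1 at a dim 4.39 to 4.77. None of these 4 passed in limma over all genes (adjusted p from 0.597 to 0.653).

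The p53 targets were also set against the untreated range array by array. In finerenone replicate 1, 17 of the 33 targets lay above the highest untreated array and 2 below the lowest. In replicate 2 these counts were 17 and 6, and in replicate 3 they were 14 and 5. Over all genes the shares above were 31.7%, 34.0% and 24.8%, and the shares below 20.5%, 20.3% and 22.0%. For genes with a mean signal of at least 6 the shares above were 38.5%, 35.7% and 24.1%. Their shares below were 17.0%, 22.3% and 20.5%. Among the targets the shares above were 51.5%, 51.5% and 42.4%, and those below 6.06%, 18.2% and 15.2%.

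**Figure D3:**
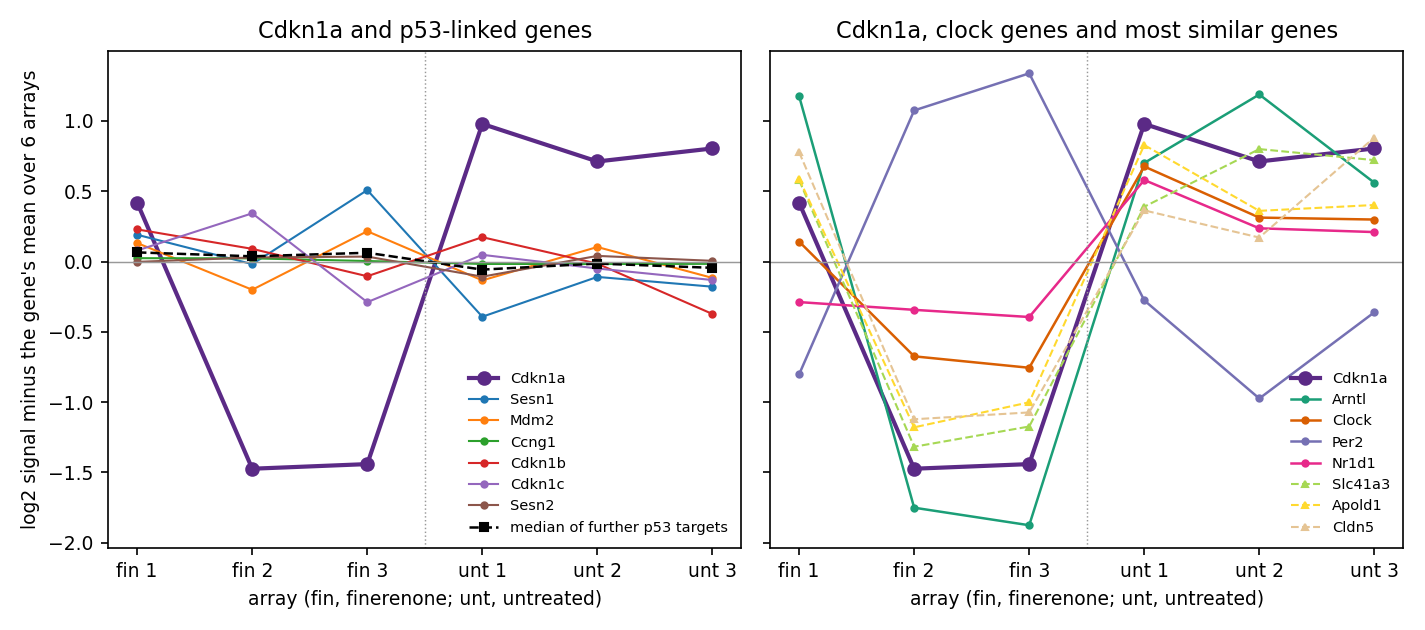
Log2 signal of each gene minus its own mean over the 6 arrays (y axis), by array (x axis), with the median of the 33 further p53 targets also drawn. Left, Cdkn1a is low in finerenone replicates 2 and 3 while the other members lie between -0.39 (Sesn1 in untreated replicate 1) and 0.51 (Sesn1 in finerenone replicate 3); right, Arntl, Clock, Slc41a3, Apold1 and Cldn5 are low in the same arrays and Per2 goes the other way.

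The genes that act on p53 went in both directions. Of 16 measured, 6 had a higher mean in treated hearts (37.5%, against 58.2% of all genes) and 10 a lower one. The median was -0.06, against 0.03 over all genes, and 0 passed over all genes. Hipk2, a kinase that phosphorylates p53 for apoptosis, read 10.95, 11.00 and 11.07 in treated against 11.25, 11.14 and 11.45 in untreated arrays, a difference of -0.28 ± 0.10 (SE). Ppm1d, or Wip1, the phosphatase that switches p53 off again and a p53 target itself, differed by 0.24 ± 0.10. In both genes the groups did not overlap. Crebbp, the acetyltransferase CBP, differed by -0.32 ± 0.15 and Usp7, a deubiquitinase of Mdm2 and p53, by -0.17 ± 0.08. The groups did not overlap for Usp7 either, but did for Crebbp. Crebbp was at -0.20 without untreated replicate 1 and Usp7 at -0.11 without finerenone replicate 1. None of the 4 passed in limma (adjusted p = 0.608 for Hipk2, 0.622 for Ppm1d, 0.658 for Crebbp and 0.692 for Usp7).

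The cell cycle genes around p21 were read from 2 lists. Of 14 measured INK4 inhibitors, cyclins, kinases and pocket proteins 9 were higher and 5 lower (median 0.07). Cdkn2c, the INK4 inhibitor p18, read 5.47, 5.36 and 5.25 in treated arrays, above all untreated ones (4.93 to 5.06), a difference of 0.37 ± 0.09 (SE), and Ccnd2, cyclin D2, differed by -0.37 ± 0.14. Ccne2, cyclin E2, differed by 0.34 ± 0.16 and Cdkn2a, the locus of p16 and of the Mdm2 inhibitor Arf, by 0.09 ± 0.08. Of 24 measured proliferation genes 18 were higher, with a median of 0.09, and 5 of the 24 had a mean signal of at least 6. Pcna, the replication clamp that p21 binds, read 9.84, 9.65 and 9.68 against 9.22, 9.58 and 9.21, a difference of 0.38 ± 0.13. Mcm6, a subunit of the replicative helicase, differed by 0.26 ± 0.09, the mitotic cyclin Ccnb2 by 0.18 ± 0.10 and the centromere histone Cenpa by 0.21 ± 0.12. Ccne2 was at 0.21 without finerenone replicate 2, Cdkn2a at 0.15 without untreated replicate 2, and Cenpa at 0.13 without finerenone replicate 1 or untreated replicate 1. In each list 0 genes passed over all genes in limma (adjusted p = 0.597 for Cdkn2c, 0.613 for Ccnd2, 0.599 for Pcna, 0.597 for Mcm6 and 0.678 to 0.835 for the others named). In finerenone replicate 1, where Cdkn1a was close to the untreated level, 17 of the 24 proliferation genes (70.8%) were above the untreated range, against 31.7% of all genes. In replicates 2 and 3 these were 7 (29.2%) and 10 (41.7%), against 34.0% and 24.8% of all genes.

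Other routes to Cdkn1a gave mixed values. In the integrated stress response, which shares Sesn2 with p53, 14 of 18 genes were higher (median 0.10). Nupr1, a stress-induced chromatin protein, read 7.03, 7.14 and 6.98 against 6.57, 6.54 and 6.33, a difference of 0.57 ± 0.10 (SE), and Atf4, the factor at the centre of that response, differed by 0.17 ± 0.07. Psat1, an enzyme of serine synthesis, differed by 0.25 ± 0.11 and Ddit3, the factor CHOP, by 0.39 ± 0.21. Psat1 was at 0.15 without finerenone replicate 2 and Ddit3 at 0.21 without untreated replicate 2. Of 16 corticosteroid-responsive genes 9 were higher and 7 lower (median 0.05), with Errfi1, an inhibitor of the EGF receptor, at -0.73 ± 0.25 and at -0.45 without finerenone replicate 2. Sgk1, a kinase that mineralocorticoids induce, was at -0.55 ± 0.27, Cebpd, a transcription factor, at 0.56 ± 0.28 and Tsc22d3, the glucocorticoid-induced leucine zipper, at 0.27 ± 0.15. Sgk1 was at -0.26 without untreated replicate 1 and Tsc22d3 at 0.12 without untreated replicate 3. Cebpd was at 0.34 without untreated replicate 1 and at 0.89 without untreated replicate 2. FoxO factors and targets split 5 to 5 (median 0.01), with Irs2, an adaptor of the insulin receptor, at 0.62 ± 0.22, Pik3ip1, an inhibitor of PI3 kinase, at 0.15 ± 0.08, Foxo1 itself at -0.21 ± 0.22 and Trim63, a muscle ubiquitin ligase, at -0.22 ± 0.25. Foxo1 was at 0.03 without untreated replicate 1, and Trim63 ran from -0.49 without finerenone replicate 1 to -0.05 without finerenone replicate 2. Of 12 other transcription factors known to act on Cdkn1a 5 were higher and 7 lower (median -0.06), among them Myc, which represses it, at 0.27 ± 0.13. Klf4, a partner of p53 at the gene, was at -0.44 ± 0.18, Sp1 at -0.17 ± 0.10 and Smad4, which carries TGF-beta signals, at -0.11 ± 0.10. Without untreated replicate 1, Klf4 was at -0.29, Sp1 at -0.10 and Smad4 at -0.05. In these 4 lists 0 genes passed over all genes in limma (adjusted p = 0.597 for Nupr1, 0.640 for Atf4, 0.607 for Errfi1, 0.607 for Irs2, 0.685 for Myc and 0.629 to 0.878 for the others named).

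The genes whose pattern was most like Cdkn1a were found among 8582 named genes with a mean signal of at least 6. Likeness was the root mean square distance over the 6 arrays between profiles centred on their own means, on the log2 scale, where a flat profile lies 1.04 from Cdkn1a. The nearest was Slc41a3, a magnesium transporter (distance 0.28), followed by Apold1, a gene of endothelial cells (0.32), and Cldn5, the claudin of endothelial tight junctions (0.42). Next came Arntl, the clock activator Bmal1 (0.45), Lbh (0.45), Trp53i11 (0.50), Clock (0.53) and the ephrin receptor Epha4 (0.55). The other 6 measured members lay between 1.06 (Ccng1) and 1.26 (Sesn1), farther than a flat profile. A gene that varies little lies near 1.04 whatever its pattern, so these distances cannot show whether such members follow Cdkn1a. Among the 8582 genes, Ccng1, Cdkn1b, Mdm2 and Cdkn1c held the middling ranks 4104, 4581, 4829 and 5304. Sesn1 held rank 8144, and Sesn2 was too dim to be ranked. The distances are a description and carry no test.

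In values, Slc41a3 read 9.80, 7.90 and 8.05 in treated against 9.61, 10.02 and 9.94 in untreated arrays. Apold1 read 10.55, 8.78 and 8.96 against 10.79, 10.32 and 10.36. Trp53i11, named as a p53-induced gene, read 10.76, 8.41 and 8.87 against 9.99, 9.97 and 10.45. In all 3 genes finerenone replicates 2 and 3 lay below every other array and replicate 1 lay among or above the untreated ones, so for Slc41a3, Apold1 and Trp53i11 the groups overlapped.

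Arntl, Clock and Per2, genes of the circadian clock, were set apart in the same arrays. Arntl read 8.89, 5.96 and 5.83 in treated against 8.41, 8.90 and 8.27 in untreated arrays. Per2, a repressor that oscillates opposite to it, read 6.32, 8.20 and 8.46 against 6.84, 6.15 and 6.76. Clock, the partner of Bmal1, read 12.27, 11.46 and 11.38 against 12.81, 12.44 and 12.43. Arntl and Clock thus were lowest, and Per2 highest, in the same 2 mice that had low Cdkn1a. Nr1d1, or Rev-erb alpha, a repressor of Arntl, was instead lower in all 3 treated arrays (10.18, 10.13 and 10.08 against 11.05, 10.71 and 10.68).

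Of 15 measured clock genes, 14 lay outside the untreated range in finerenone replicate 2 (5 below, 9 above) and 14 in replicate 3 (5 and 9), against 54.3% and 46.7% of all genes. In replicate 1 there were 8 (53.3%), close to the 52.1% of all genes, but all 8 lay below, where 20.5% of all genes did. As group differences 9 were higher and 6 lower (median 0.27), and 0 passed over all genes in limma (adjusted p = 0.682 for Arntl, 0.597 for Clock, 0.700 for Per2 and 0.597 for Nr1d1). The difference of Arntl was -1.63 ± 0.80 (SE) and ran from -2.63 without finerenone replicate 1 to -1.10 without replicate 3, and that of Per2 was 1.07 ± 0.56 (0.67 without finerenone replicate 3 and 1.74 without replicate 1). The labels give no time of day for the collection, and the part of the clock in the Cdkn1a values was not tested.

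**Figure D4:**
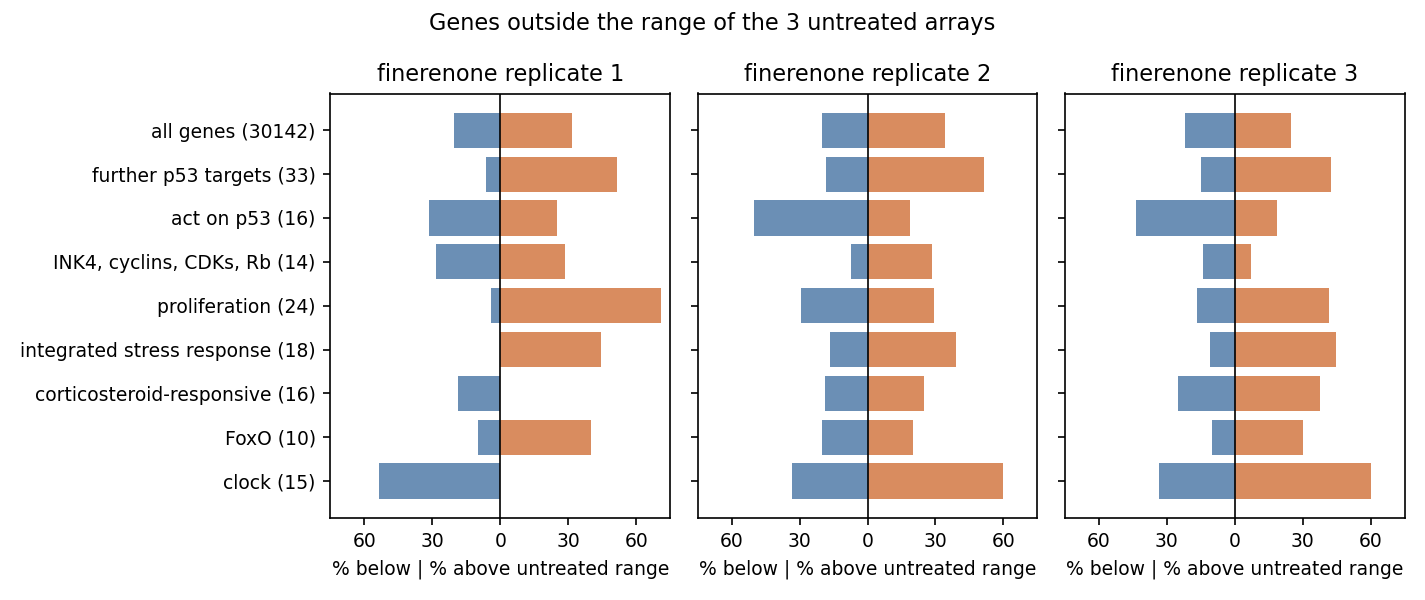
Share of the measured genes of each list (number in brackets) that lay below (left, blue) or above (right, orange) the range of the 3 untreated arrays, in percent, for each treated array. In replicate 1, 8 of the 15 clock genes lie below and 0 above, and in replicates 2 and 3, 5 lie below and 9 above. Of the p53 targets 51.5%, 51.5% and 42.4% lie above in replicates 1, 2 and 3, and 6.06%, 18.2% and 15.2% below. The shares of all genes are 31.7%, 34.0% and 24.8% above, and 20.5%, 20.3% and 22.0% below. Genes with a mean signal of at least 6, not drawn, have 38.5%, 35.7% and 24.1% above.

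The ventricle holds several cell types, and in such bulk RNA fewer cells of a type and less RNA per cell cannot be told apart. Of 8 cardiomyocyte markers 7 were measured, and the log2 of their summed signal was 21.39 to 21.43 in treated and 21.41 to 21.43 in untreated arrays. That sum is carried by Tnnt2, Myh6 and Pln, which lay at or near the top of the deposited scale, so it cannot show whether the cardiomyocyte share differed. Ryr2, the calcium release channel, lay below the top and varied within both groups, from 15.80 to 16.77 in treated and from 16.11 to 16.79 in untreated arrays. All 7 measured endothelial markers were lower (median -0.35), with summed signals of 15.26 to 15.53 against 15.58 to 16.45. This leaned on untreated replicate 1, where the list's median signal, each gene centred on its mean, was 0.65. In untreated replicates 2 and 3 it was -0.08 and 0.04. In Pecam1 (12.24, 11.69 and 11.79 in untreated arrays) and Emcn, only untreated replicate 1 lay above all treated arrays. All 8 macrophage markers were higher (median 0.28), with summed signals of 15.94 to 16.76 against 15.25 to 16.01. That sum is carried by Lyz2 (means 16.11 and 15.36), far above the next marker, C1qb (12.05 and 11.55). Kdr, the VEGF receptor of endothelial cells, differed by -0.86 ± 0.27 (SE), and Cdh5, their cadherin, by -0.73 ± 0.31. Fcgr1, an Fc receptor of macrophages, differed by 0.60 ± 0.20, and Lyz2, their lysozyme, by 0.75 ± 0.31. Cdh5 was at -0.45 without untreated replicate 1, and Lyz2 at 0.48 without finerenone replicate 1 and at 0.50 after quantile normalization. Pericyte and smooth muscle markers were lower in 5 of 6 (median -0.24), with Pdgfrb at -0.55 ± 0.16, and fibroblast markers were higher in 4 of 6 (median 0.10). The 6 lymphocyte markers were dim and lower (median -0.12), while atrial markers were higher in 2 of 3 and skeletal muscle markers lower in 5 of 6. Of the erythroid markers 1 of 4 was measured, Alas2 at -0.54 ± 0.67. The differences of Tnnt2 (0.0010), Tnni3 (0.0013) and the macrophage marker Csf1r (0.0026) were very small. Of all these markers 0 passed in limma over all genes (adjusted p from 0.597 for Kdr and Pdgfrb). Kdr read 13.49, 13.08 and 13.02 in treated arrays, Cdh5 14.08, 13.97 and 13.66 and Pdgfrb 9.53, 9.04 and 9.02, so in these 3 markers finerenone replicate 1 was the highest treated array, as in Cdkn1a. The same held for the endothelial Tie1, but not for the other endothelial, pericyte and smooth muscle markers. It held as well for the macrophage markers Lyz2, C1qb, Fcgr1, Cd68, Adgre1 and Csf1r, but not for C1qa or Cd14. Of the fibroblast markers it held for Col1a1, Col1a2, Dcn and Gsn, but not for Lum or Tcf21. This order was thus not particular to vascular markers or to markers with lower means. The endothelial Pecam1 read 11.60, 12.12 and 11.69, with replicate 1 the lowest. In Pecam1 and in the endothelial Tek, Emcn and Eng, finerenone replicate 2 was the highest treated array. In Acta2, Myh11, Tagln, Rgs5 and Cspg4, the pericyte and smooth muscle markers beside Pdgfrb, finerenone replicate 1 was the lowest treated array. The part of cell makeup in the Cdkn1a difference was not tested.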

How the data were processed

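The authors deposited log2 signals per probe set, and the submitters' processing notes name RMA, Affymetrix Expression Console and, beside them, the Transcriptome Analysis Console, with no versions. RNA integrity numbers were above 7.3, per the labels' protocols. Of 65956 transcript clusters, 30604 had 1 symbol in the platform annotation, updated by Entrez identifier to RefSeq (GRCm38.p6), which gave 30142 genes. Where a gene had more than 1 cluster (355 genes), the brightest stood for it, and dim genes were kept. Medians over clusters ran from 4.43 to 4.48 across arrays.

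Groups were compared by limma 3.58.1 under R 4.3.3 (two-sided, lmFit then eBayes, no covariate), with Benjamini-Hochberg adjustment over all genes and a threshold of 0.05. The code was tested on simulated data. Only 3 arrays per group limit the precision.

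The members, lists and naming rules were chosen with earlier results of these data known. All members were named. From each list up to 4 genes with the smallest unadjusted p were named, of the marker lists fewer, along with the 8 genes nearest to Cdkn1a. The motif search allowed 1 mismatch in a pair of decamers and none elsewhere. Alternatives were other normalizations, a filter on dim genes, averaged clusters, weighted arrays, a prior that is robust and follows the mean, a block on replicate number and each array left out.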

Additional observations from a re-analysis of the deposited data

How the results depend on the processing

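Under the 8 other settings and with each of 6 arrays left out, 0 genes and 0 members passed the adjusted threshold. The Cdkn1a difference ran from -1.77 to -1.57 under the other settings and from -2.29 to -1.34 with single arrays left out. Its groups did not overlap, so leaving out 1 array could not turn its sign. The gene was chosen for this difference, so these ranges are a description and no test. The median of the further p53 targets ran from 0.10 to 0.14 and from 0.09 to 0.15. Signs turned for Ccng1 after cyclic loess (-0.042), Cdkn1c without finerenone replicate 2 (-0.061), Sesn2 and Foxo1 without untreated replicate 1 (-0.0020 and 0.032) and Cdkn1b without untreated replicate 3 (-0.0076), and the cause was not tested. With single arrays left out these differences ran up to 0.2654 for Cdkn1b, 0.2553 for Cdkn1c and 0.0719 for Sesn2, and down to -0.4252 for Foxo1. Genes with an unadjusted p below 0.05 numbered 1305 of 11356 with a mean of at least 6, against 2353 of 30142. The count is lower because fewer genes are tested, while the share of them is larger.

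Replicate numbers did not pair the arrays: deviations of same-numbered arrays correlated at -0.15, 0.059 and 0.058. With the replicate block 0 genes passed, 2319 had an unadjusted p below 0.05, the Cdkn1a difference was -1.66 and the p53 target median 0.12, so it changed no call. Of the members, Sesn2 lay near the median of all genes and Ccng1 near the top of the scale.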

Other observations

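Srsf3, Ppil1 and Rpl35a-ps3, the brighter of the measured genes beside Cdkn1a on its chromosome, did not share its pattern. Among the 6 genes on either side in RefSeq order, 7 had a row of their own. Cpne5 (mean signal 3.48), Gm16196 (3.91), Trp53cor1 (4.31) and Rab44 (4.95) were dim, so they could hardly show a fall. Trp53cor1, the p53-induced long non-coding RNA lincRNA-p21 next to Cdkn1a, read 4.14, 4.54 and 4.50 in treated and 4.44, 4.10 and 4.14 in untreated arrays, a difference of 0.16 ± 0.15 (SE), at a dim level. Srsf3, a splicing factor, differed by -0.13 ± 0.12 and was lowest in finerenone replicate 2 (10.49). Ppil1, a peptidyl-prolyl isomerase, differed by 0.33 ± 0.11, and Rpl35a-ps3 by 0.34 ± 0.19. None passed in limma (adjusted p = 0.841 for Trp53cor1, 0.843 for Srsf3, 0.603 for Ppil1 and 0.712 for Rpl35a-ps3). These genes were chosen after the Cdkn1a values were seen.

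Other genes named for p53 also differed in pattern from Trp53i11. Trp53inp1, an autophagy protein that p53 induces, read 8.53, 8.33 and 8.65 against 8.46, 8.42 and 8.71. Trp53inp2, a relative of it, read 8.09, 8.61 and 8.26 against 8.59, 8.60 and 8.71, a difference of -0.31 ± 0.14 (SE; adjusted p = 0.656 in limma). Finerenone replicates 2 and 3 were not the 2 lowest arrays in either gene.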
